A study of Mus musculus with 18 samples.

Results

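The genes described here are the 3 Nr4a nuclear receptors (Nr4a1, Nr4a2 and Nr4a3) and 3 antiproliferative genes of the Btg family (Btg1, Btg2 and Btg3), chosen by name. A gene was read from the probe set that carried its symbol and no other, and 5 of the 6 had one such probe set, among 19505 genes measured in that way. Btg3 was not analysed on the arrays because no probe set carried its symbol alone. Their RNA was compared between hematopoietic stem and progenitor cells of the mouse fetal liver (FL), where these cells multiply before birth, and of the adult bone marrow (BM). All 18 Affymetrix Clariom S arrays carried RNA of the strain C57Bl/6J. The FL groups came from embryos at E13.5 and the BM groups from mice 3 to 12 months old. In each source the long-term stem cells (LT-HSC), short-term stem cells (ST-HSC) and multipotent progenitors (MPP) had 3 arrays each, lettered a, b and c. Values are log2 signals, so a difference of 1 is a doubling, and they do not tell whether a probe set lay above background.

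Nr4a1 (Nur77), Nr4a2 (Nurr1) and Nr4a3 (Nor1) are orphan nuclear receptors that act without a known physiological ligand, so their activity follows largely from how much of each is made. They are immediate early genes, transcribed within minutes of signals that raise calcium or cyclic AMP or activate kinases, in part through CREB bound at cyclic AMP response elements (CRE). Btg1, Btg2 and Btg3 belong to the Btg/Tob family, whose proteins bind the Ccr4-Not deadenylase, speed the removal of poly(A) tails and slow cell division. Btg2 is also an immediate early gene and a target of p53. In the blood system, loss of Nr4a1 and Nr4a3 together leads to expansion of myeloid cells, and both receptors are linked to stem cell quiescence.

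The RefSeq annotation of GRCm38.p6 placed Nr4a1 on chromosome 15 from 101253902 to 101274795, Nr4a2 on chromosome 2 from 57106830 to 57124003 and Nr4a3 on chromosome 4 from 48045078 to 48086447. It placed Btg1 on chromosome 10 from 96617001 to 96622813, Btg2 on chromosome 1 from 134074865 to 134079155 and Btg3 on chromosome 16 from 78359860 to 78377181. The 250 bases before the transcript start of RefSeq's promoter table are shown for the measured genes, to look for the CRE named above. Whether CRE have a part in the differences described below was not tested. Sequences run 5′ to 3′ on the gene's strand, and capitals mark the CRE half-site TGACG or its reverse complement CGTCA. The Nr4a1 window, at chr15:101266596-101266845 (+), lies inside the annotated span, which begins farther upstream:
Nr4a1: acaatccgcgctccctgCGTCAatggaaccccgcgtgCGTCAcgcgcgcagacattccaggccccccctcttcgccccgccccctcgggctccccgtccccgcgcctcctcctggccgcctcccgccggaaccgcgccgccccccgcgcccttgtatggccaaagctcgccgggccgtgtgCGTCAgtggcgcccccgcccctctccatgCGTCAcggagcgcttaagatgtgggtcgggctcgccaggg
The Nr4a2 window is at chr2:57124004-57124253 (-):
Nr4a2: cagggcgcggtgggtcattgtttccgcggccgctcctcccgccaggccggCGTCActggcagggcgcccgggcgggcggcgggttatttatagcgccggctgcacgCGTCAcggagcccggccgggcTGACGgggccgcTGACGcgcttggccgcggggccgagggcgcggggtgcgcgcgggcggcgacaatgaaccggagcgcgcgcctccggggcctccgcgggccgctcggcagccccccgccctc
Of the Nr4a3 window, which overlaps the annotated span, the 30 bases at chr4:48045083-48045112 (+) that hold 2 neighbouring half-sites are shown:
Nr4a3: gtcccatgtCGTCAcatTGACGtctcgcat
The Btg1 window is at chr10:96616751-96617000 (+):
Btg1: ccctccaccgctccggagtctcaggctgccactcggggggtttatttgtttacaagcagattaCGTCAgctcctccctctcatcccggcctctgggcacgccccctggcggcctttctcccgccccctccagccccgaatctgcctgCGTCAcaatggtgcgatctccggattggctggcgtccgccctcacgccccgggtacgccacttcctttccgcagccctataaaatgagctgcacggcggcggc
The Btg2 window is at chr1:134079156-134079405 (-):
Btg2: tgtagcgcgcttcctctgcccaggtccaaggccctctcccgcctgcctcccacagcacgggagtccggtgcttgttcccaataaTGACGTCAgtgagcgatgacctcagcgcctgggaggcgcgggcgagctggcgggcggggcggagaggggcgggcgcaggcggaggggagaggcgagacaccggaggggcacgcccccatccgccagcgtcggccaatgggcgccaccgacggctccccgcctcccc

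Each Nr4a window held 4 half-sites on either strand. They lay 233, 213, 69 and 40 bases before the start in Nr4a1, 200, 144, 123 and 111 in Nr4a2, and 231, 213, 205 and 147 in Nr4a3. Of 32851 RefSeq promoter windows of the same length, 17.8% held at least 1 half-site, 3.9% at least 2, 0.688% at least 3, and 0.137% (45 windows) at least 4. The Btg1 window held 2 half-sites, 187 and 103 bases before the start. In Btg2 the half-sites, 166 and 163 bases before the start, overlapped on opposite strands and formed 1 full CRE, TGACGTCA, which 1.55% of windows held. Neither of the 2 Btg3 windows held a half-site. None of the windows of the 5 measured genes, nor those of Btg3, held the AP-1 site TGACTCA (4.46% of all windows), the Nr4a binding element AAAGGTCA (1.34%) or a CArG box (1.47%), searched on both strands. The box TATAAA (12.4% of all windows) occurred once in Nr4a2, 164 bases before the start, and once in Btg1, 26 bases before it. The GC box GGGCGG (32.7%) occurred in each of the 5. These matches describe the letters of the windows and not binding.

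Of 6 sort markers measured, those that divide the populations followed the labels: Slamf1 (Cd150) was highest in LT-HSC of both sources (9.31 ± 0.18 in FL and 9.66 ± 0.40 in BM, SD, n = 3) and Cd48 highest in MPP (12.35 and 12.26). Flt3, low on LT-HSC, was lowest there (7.48 and 7.19). Procr, a stem cell marker, averaged 7.17 in LT-HSC of both sources against 7.58 in FL and 7.57 in BM ST-HSC, within the spread of the arrays, and was lowest in MPP (6.24 and 6.71). Kit lay between 13.07 and 13.26 in all groups, and Cd34 was lowest in LT-HSC of both sources (11.72 and 10.59). The array labelled BM LT-HSC c stood apart, with Cd48 at 11.40 against 9.58 and 9.98 on BM LT-HSC a and b. It was also 1 of 4 arrays with a narrow spread of values (interquartile range under 2.8, with FL LT-HSC b and BM ST-HSC b and c). The medians of the 18 arrays ran from 7.68 to 7.78. The free-text descriptions of all arrays name transplanted marrow transduced with a guide RNA, sgEzh2 on 4 FL arrays (MPP a and b, ST-HSC a and LT-HSC a) and sgLuc on the others, with BRSST sgRNA named beside it on the FL arrays. This goes against the titles, sources and stages, which were used here. Calls of the 5 genes that were lost or gained without any of these arrays are given with and without them. The Y-linked genes Kdm5d and Uty averaged 7.50 and 7.28 in FL against 4.55 and 3.92 in BM, while Eif2s3y did not pass the test. Kdm5d and Uty did not overlap between the sources (lowest FL arrays 6.64 and 6.92, highest BM arrays 4.88 and 4.17). Source, age, organ, way of isolation and the sex of the cells cannot be told apart in this design. Whether a, b and c of a group were separate animals is not stated. The p-values thus take in only the variation among these arrays, which may be technical.

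All 5 measured genes had lower signal in FL than in BM when the 3 populations were averaged. Nr4a1 was 7.44-fold lower, Nr4a2 5.90-fold, Btg2 3.47-fold, Nr4a3 2.52-fold and Btg1 1.42-fold. A gene was called changed when its Benjamini-Hochberg adjusted p over all genes in limma was under 0.05, and 9.26% of all genes were called lower in this comparison. The median difference of the 5 was -1.79, against 0.01 over all genes. Since these are bulk samples, fewer cells with a transcript and less of it per cell cannot be told apart.

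**Figure D1:**
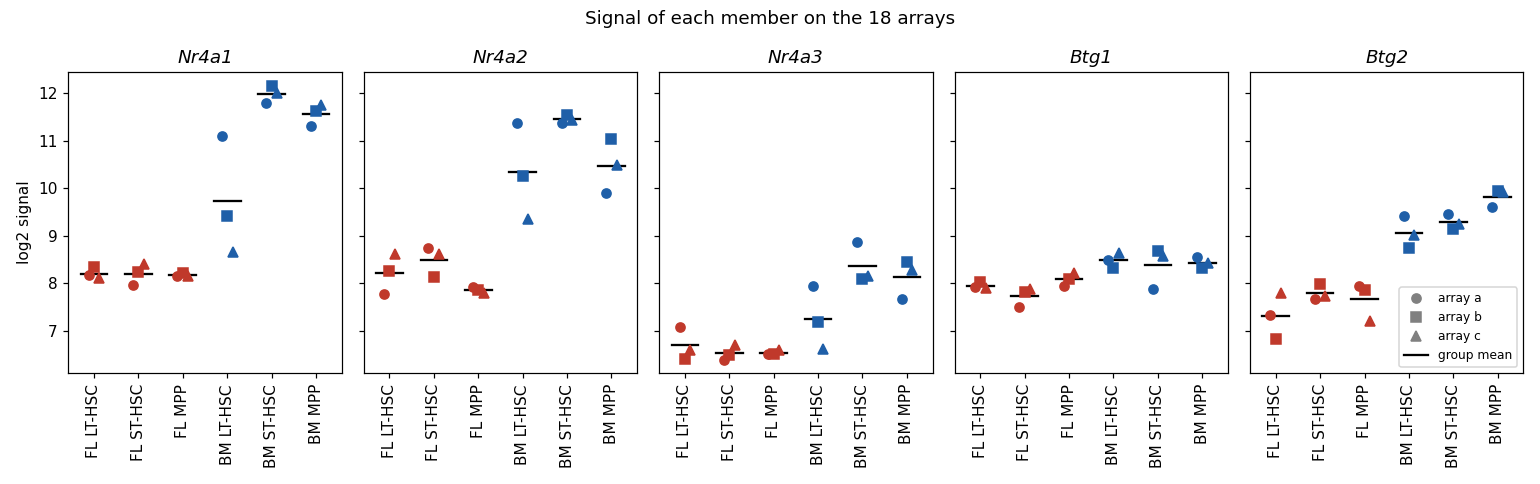
Log2 signal of the 5 measured genes (vertical axis, 1 panel per gene) in the 6 groups (horizontal axis; red FL, blue BM), 1 symbol per array a, b or c and a black line at the group mean. Nr4a1 lay between 7.97 and 8.40 on the 9 FL arrays and between 8.66 and 12.17 on the 9 BM arrays, with BM LT-HSC spread over most of the BM range.

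Among the receptors, Nr4a1 was close to level in FL. Its 9 FL arrays ran from 7.97 through a median of 8.17 to 8.40. In BM, the ST-HSC arrays read 11.79, 12.17 and 12.00 (a, b and c), the MPP arrays 11.31, 11.62 and 11.75, and the LT-HSC arrays 11.10, 9.42 and 8.66. Each BM array lay above each FL array, and BM LT-HSC c was the nearest to them while BM LT-HSC a came near the MPP arrays. In order of the means, the 3 FL groups overlapped, followed without overlap by BM LT-HSC (9.73 ± 1.25, SD, n = 3), BM MPP (11.56 ± 0.23) and BM ST-HSC (11.99 ± 0.19). FL minus BM was -2.90 ± 0.21 (limma standard error; adjusted p = 1.89e-08), the difference ranked 23 from the lowest of 19505 genes.

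Nr4a2, best known for its part in dopamine neurons, ran from 7.78 through a median of 8.14 to 8.73 on the FL arrays. Its BM ST-HSC arrays read 11.38, 11.55 and 11.43, the MPP arrays 9.90, 11.04 and 10.48, and the LT-HSC arrays 11.37, 10.27 and 9.36. No FL array reached a BM array, and the lowest BM array was again LT-HSC c. BM LT-HSC (10.33 ± 1.01) and BM MPP (10.47 ± 0.57) overlapped, with BM ST-HSC (11.45 ± 0.09) above both. The FL groups lay between 7.85 ± 0.06 in MPP and 8.50 ± 0.31 in ST-HSC. FL minus BM was -2.56 ± 0.21 (adjusted p = 6.15e-08), rank 35 from the lowest.

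For Nr4a3 the separation was less complete. FL arrays ran from 6.39 through a median of 6.52 to 7.07, the highest being LT-HSC a. BM ST-HSC arrays read 8.86, 8.10 and 8.16, MPP arrays 7.66, 8.45 and 8.27, and LT-HSC arrays 7.95, 7.18 and 6.62. BM LT-HSC c thus fell inside the FL range, and every group overlapped with its neighbour in the order of means, from 6.53 ± 0.16 in FL ST-HSC to 8.37 ± 0.42 in BM ST-HSC. FL minus BM was -1.33 ± 0.16 (adjusted p = 9.50e-06).

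Btg2 was the Btg gene with the larger difference. Its FL arrays ran from 6.82 through a median of 7.73 to 7.98. BM LT-HSC arrays read 9.41, 8.74 and 9.01, ST-HSC arrays 9.46, 9.15 and 9.25, and MPP arrays 9.60, 9.94 and 9.93. All BM arrays lay above all FL arrays, and the BM LT-HSC arrays did not spread as those of the receptors did. BM LT-HSC (9.06 ± 0.34) and ST-HSC (9.29 ± 0.16) overlapped, and BM MPP (9.82 ± 0.19) lay above them. FL minus BM was -1.79 ± 0.13 (adjusted p = 2.05e-08), rank 86 from the lowest.

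Btg1, which is abundant in resting lymphocytes, differed least. Its FL groups averaged 7.95 ± 0.06 in LT-HSC, 7.73 ± 0.19 in ST-HSC and 8.08 ± 0.14 in MPP, and its BM groups 8.48 ± 0.16, 8.38 ± 0.43 and 8.44 ± 0.11. Within each population the FL and BM arrays did not overlap, but BM ST-HSC a (7.88) was hardly above FL ST-HSC c (7.87). It lay below every FL array of the other populations. FL minus BM was -0.51 ± 0.10 (adjusted p = 0.000951), rank 872 from the lowest. This call was lost without the 4 arrays described as sgEzh2 (-0.42, adjusted p = 0.0507).

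In Nr4a1, Nr4a2, Btg1 and Btg2 the 3 FL arrays lay below the 3 BM arrays in each population, a pattern held by 590 genes (3.02%) of all those tested. Nr4a3 missed it through the overlap in LT-HSC. Without BM LT-HSC c, all 5 genes were still called, at -3.07, -2.72, -1.44, -0.48 and -1.80 for Nr4a1, Nr4a2, Nr4a3, Btg1 and Btg2, and without the 4 narrow arrays too, at -3.03, -2.71, -1.55, -0.33 and -1.77.

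**Figure D2:**
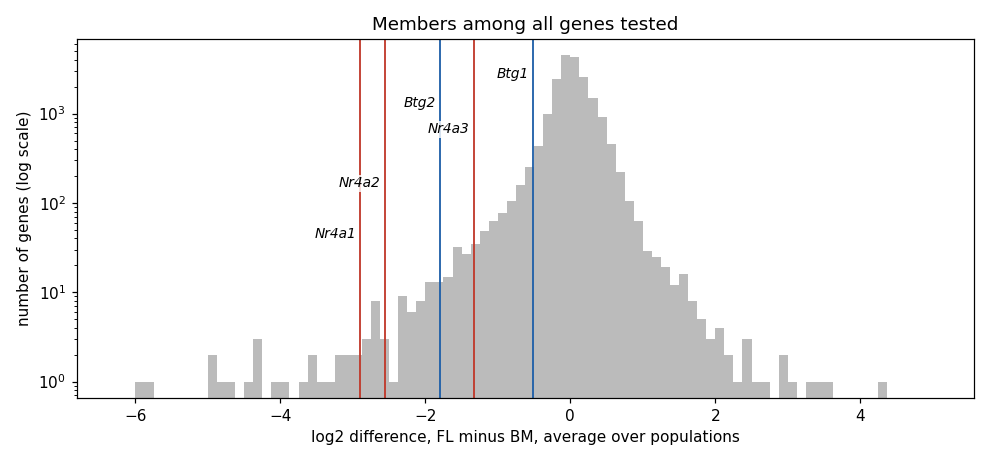
Histogram of the FL minus BM difference averaged over the 3 populations (horizontal axis, log2) for the 19505 genes (vertical axis, number of genes on a log scale), with a red line for each Nr4a gene and a blue line for each Btg gene. All 5 lines lie below 0, from -2.90 for Nr4a1 to -0.51 for Btg1, while the median of all genes was 0.01.

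The size of the source difference was then read within each population. In ST-HSC all 5 genes were lower in FL (6.52% of all genes called lower): Nr4a1 by 13.7-fold (-3.78 ± 0.37, adjusted p = 2.15e-06), Nr4a2 by 7.75-fold (-2.95 ± 0.36), Nr4a3 by 3.60-fold (-1.85 ± 0.28), Btg2 by 2.81-fold (-1.49 ± 0.23) and Btg1 by 1.56-fold (-0.64 ± 0.17, adjusted p = 0.0168). In MPP 4 of 5 were lower (3.55%), namely Nr4a1 by 10.4-fold (-3.38 ± 0.37), Nr4a2 by 6.14-fold (-2.62 ± 0.36), Btg2 by 4.44-fold (-2.15 ± 0.23) and Nr4a3 by 3.01-fold (-1.59 ± 0.28). Btg1 in MPP did not pass (-0.35 ± 0.17, adjusted p = 0.340), except with array weights (-0.37, adjusted p = 0.0194). In LT-HSC 3 of 5 were lower (4.58%): Nr4a2 by 4.32-fold (-2.11 ± 0.36, adjusted p = 0.000930), Btg2 by 3.34-fold (-1.74 ± 0.23, adjusted p = 7.73e-05) and Nr4a1 by 2.87-fold (-1.52 ± 0.37, adjusted p = 0.0151). Nr4a3 (-0.56 ± 0.28, adjusted p = 0.296) and Btg1 (-0.53 ± 0.17, adjusted p = 0.0726) were not called there.

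Several of these calls depended on single arrays. The Nr4a1 call in LT-HSC was lost without FL LT-HSC a (adjusted p = 0.0555) or c (0.0532), without the sgEzh2 arrays (0.132) and in a fit of the 2 groups alone (0.245), where Nr4a2 was lost as well (0.0614). Its difference in LT-HSC was -0.83 without BM LT-HSC a and -2.05 without BM LT-HSC c, called both times. Btg1 in ST-HSC was lost without FL ST-HSC a (adjusted p = 0.0727), BM ST-HSC b (0.105) or c (0.0924), without the sgEzh2 arrays (-0.53, adjusted p = 0.131) and in a fit of the 2 groups alone (0.0709). Without the narrow arrays, which leaves BM ST-HSC a as the only BM ST-HSC array, the Btg1 difference in ST-HSC was -0.15 and not called. The Nr4a3 call in MPP was lost without the sgEzh2 arrays, which leaves FL MPP c as the only FL MPP array. The difference was then -1.53, beside -1.59 with them. Btg1 in LT-HSC was called only when BM ST-HSC a was left out (adjusted p = 0.0134), among all the alternatives tried.

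**Figure D3:**
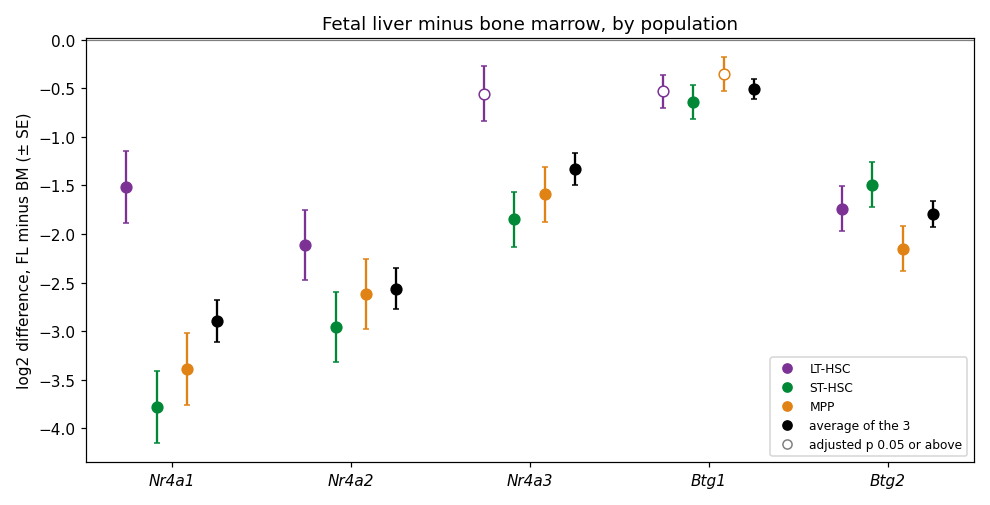
FL minus BM difference (vertical axis, log2) of each gene (horizontal axis) in LT-HSC, ST-HSC, MPP and their average, as points with bars of 1 limma standard error; open points have an adjusted p of 0.05 or above. Nr4a1 has its smallest difference in LT-HSC (-1.52) and its largest in ST-HSC (-3.78), and for Btg2 the LT-HSC value (-1.74) lies between the other two.

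Within FL, none of the 5 genes was called between any populations. For LT-HSC against MPP (3.4% of all genes called either way), LT-HSC against ST-HSC (0.559%) and ST-HSC against MPP (2.26%) the limma counts were 0 of 5, and 0 of 5 at an unadjusted p under 0.05 too. The largest of these differences was 0.64 ± 0.36 for Nr4a2 in ST-HSC against MPP (adjusted p = 0.475), where the arrays did not overlap. In a fit of those 2 groups alone it was called (adjusted p = 0.0400).

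Within BM, Nr4a1 was lower in LT-HSC than in either other population. Against ST-HSC it was 4.79-fold lower (-2.26 ± 0.37, adjusted p = 0.00301), the fourth lowest difference of all genes, in a comparison that called 0.502% of genes lower in LT-HSC. Against MPP it was 3.57-fold lower (-1.83 ± 0.37, adjusted p = 0.00649; 2.35% of genes). The arrays did not overlap in either comparison. The other genes were not called: Nr4a3 differed by -1.12 ± 0.28 from ST-HSC (adjusted p = 0.0521) and by -0.88 ± 0.28 from MPP (0.0937), Nr4a2 by -1.12 ± 0.36 from ST-HSC (0.145) and Btg2 by -0.77 ± 0.23 from MPP (0.0724). ST-HSC against MPP gave 0 of 5 calls in limma (6.1% of genes called either way), with 2 at an unadjusted p under 0.05, Nr4a2 (0.98 ± 0.36) and Btg2 (-0.54 ± 0.23).

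These counts changed with single arrays. Without BM LT-HSC a, 3 genes were called against ST-HSC (Nr4a1 -2.95, Nr4a2 -1.64, Nr4a3 -1.47) and 3 against MPP (Nr4a1 -2.52, Nr4a3 -1.23, Btg2 -0.95). Without BM LT-HSC c, Nr4a1 alone was called, at -1.73 against ST-HSC (adjusted p = 0.00315) and -1.30 against MPP (adjusted p = 0.0125). Without the narrow arrays, which leaves 1 BM ST-HSC array that is assumed to vary like the other groups, its difference from ST-HSC was -1.54 and not called (adjusted p = 0.113), and a fit of the 2 groups alone did not call it against ST-HSC (0.327) or MPP (0.168). Btg2 was called against MPP without FL LT-HSC b (adjusted p = 0.0399) or c (0.0451). Nr4a2 was called higher in BM ST-HSC than in MPP without BM LT-HSC a (adjusted p = 0.0422) or c (0.0319), arrays that enter this comparison through the shared estimate of the spread.

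Other measures moved along the same 3 arrays. The mean signal of 40 other immediate early genes was 9.72, 9.36 and 9.07 on BM LT-HSC a, b and c, against 9.90 to 9.97 on BM ST-HSC, 9.68 to 9.89 on BM MPP and 8.31 to 8.76 on the FL arrays. Fos read 11.40, 10.70 and 9.96 on the 3 arrays, Egr1 11.14, 10.46 and 8.90, and Jun 11.27, 10.75 and 9.60. The mean of 11 neutrophil markers was 11.48, 11.60 and 12.82, that of 9 B cell markers 8.83, 8.87 and 9.67, that of 8 T and NK cell markers 6.93, 7.02 and 8.13, and that of 10 macrophage markers 7.40, 7.41 and 8.32. The other lists were highest on c as well: megakaryocyte and platelet (9.45, 9.39 and 9.74), erythroid (9.31, 8.93 and 9.59) and hepatocyte markers (7.49, 7.38 and 7.72). Stromal and endothelial markers read 8.08, 7.91 and 8.45. Of the 3, the array with the lowest receptor signals thus had the highest mean of every list of other cells and the highest Cd48. It was also the narrow array among them. The part of such cells, or of the narrow values of c, in the spread of the receptors was not tested.

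**Figure D4:**
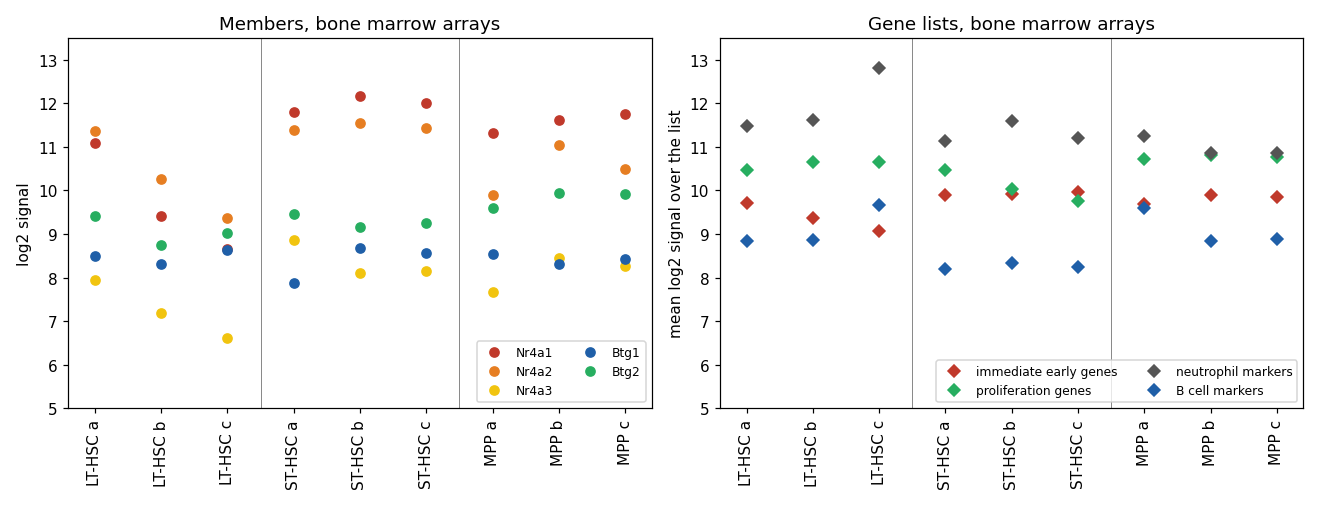
The 9 BM arrays (horizontal axis) with the log2 signal of the 5 genes on the left and the mean log2 signal of 4 gene lists on the right (immediate early, proliferation, neutrophil and B cell genes). From LT-HSC a to c the Nr4a1 signal reads 11.10, 9.42 and 8.66, while the neutrophil list reads 11.48, 11.60 and 12.82.

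Whether the differences between populations differed between the sources was tested as an interaction. For Nr4a1 the source difference was smaller in LT-HSC than in ST-HSC by 2.26 ± 0.52 (adjusted p = 0.0723) and smaller than in MPP by 1.87 ± 0.52 (adjusted p = 0.167), and the F test over both gave an adjusted p of 0.0772. None of the 5 genes passed in limma, where 0.379%, 0.543% and 0.82% of all genes were called in the 3 tests, and 2 of 5, Nr4a1 and Nr4a3, had an unadjusted p under 0.05 in each. The Nr4a3 values were 1.29 ± 0.40 against ST-HSC (adjusted p = 0.206) and 1.03 ± 0.40 against MPP (adjusted p = 0.499). Without BM LT-HSC a the Nr4a1 values were 2.95 (adjusted p = 2.91e-05) and 2.55 (adjusted p = 0.000205). Without BM LT-HSC c they were 1.73 (0.0346) and 1.33 (0.174), and without BM ST-HSC a the first was 2.36 (0.0466). The Nr4a3 value against ST-HSC was called without BM LT-HSC a (1.64, adjusted p = 0.0377). The F test called Nr4a1 without BM LT-HSC a (adjusted p = 6.17e-05) or c (0.0498), and Nr4a3 without a (0.0463). Btg2 gave -0.25 ± 0.33 and 0.41 ± 0.33, and Btg1 0.11 ± 0.24 and -0.18 ± 0.24, none called.

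The genes whose signal ran most like each member were found by Pearson's r of log2 values over the 18 arrays. These arrays share the gap between FL and BM, so r is a description of that gap and of the spread within BM together. Nr4a1 was followed most closely by Fos (0.957), Nfkbiz (0.956), Jun (0.954) and Nr4a3 (0.953). Fos and Jun encode the subunits of AP-1, and Nfkbiz an inducible regulator of NF-kappaB. Over the 9 BM arrays alone these were 0.964, 0.950, 0.914 and 0.893, and over the 9 FL arrays, where Nr4a1 hardly varied, -0.08, 0.12, 0.14 and 0.10. Nr4a2 was nearest to Fosb (0.971), Zfp36 (0.968), Pnrc1 (0.967) and Ptgs2 (0.965), of which Zfp36 encodes an RNA-binding protein that destabilises AU-rich transcripts and Ptgs2 the inducible cyclooxygenase. Nr4a3 was nearest to Nr4a1, Clic5 (0.939), Cd96 (0.926) and Klf2 (0.925).

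Btg2 ran most like B3gnt5 (0.955), Cytip (0.945), Pqlc3 (0.944) and Junb (0.943), a further AP-1 subunit. Btg2 with Nr4a1 gave 0.882 over all arrays, 0.603 within BM and -0.24 within FL. Btg1 had no neighbour as close: Cnpy3 (0.870), Mfsd10 (0.863), Zbp1 (0.852) and Dok3 (0.845) led its list. Its r with the other members was 0.497 to 0.651 over all arrays and below 0 within BM for each of them, from -0.54 with Nr4a3 to -0.14 with Nr4a1. The Btg1 values therefore shared the gap between the sources with the receptors but not the order of the BM arrays.

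Among 3 further members of the Btg/Tob family, 2 were lower in FL, Tob1 (-0.51 ± 0.11, adjusted p = 0.00295) and Tob2 (-0.35 ± 0.08, adjusted p = 0.00460). Btg4 (-0.23, adjusted p = 0.124), named because it was the only one left, did not pass. The differences of Tob1 and Btg1 (-0.51 each) were alike in size. Of the Ccr4-Not deadenylase and other Btg partners, 3 of 12 were higher in FL and none lower, where 15.9% of all genes were called higher in this comparison. These were Prmt1 (0.72 ± 0.13), an arginine methyltransferase that binds Btg1 and Btg2, and the Ccr4-Not subunits Cnot11 (0.44 ± 0.07) and Cnot6 (0.36 ± 0.10). The median of the list was 0.17, and its count of higher genes was near that share.

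Partners and coregulators of the Nr4a receptors were mostly not called: of 10 measured, 2 were higher in FL, Trim28 (0.59 ± 0.09) and Ncoa3 (0.36 ± 0.09), and 1 lower, the coactivator Ncoa1 (-1.01 ± 0.11, adjusted p = 1.66e-06). These counts were near the shares over all genes, 15.9% higher and 9.26% lower. Upstream of the receptors, of 19 CREB, calcineurin and MEF2 genes 17 were not called. Sik1, a kinase induced by cyclic AMP that restrains the CREB coactivators, was lower in FL (-1.09 ± 0.15, adjusted p = 3.96e-05), and the transcription factor Mef2c was higher (0.31 ± 0.09, adjusted p = 0.0143). The median over the 19 was -0.03.

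The other immediate early genes were lower in FL as a group: 34 of 40 were called lower and none higher, with a median of -0.80, where 9.26% of all genes were called lower. The largest differences were those of Rgs1 (-4.31 ± 0.17), a brake on G protein signalling, and of the transcription factors Fosb (-3.39 ± 0.23), Fos (-3.27 ± 0.15) and Egr1 (-2.74 ± 0.22). By population, 19 of 40 were lower in FL in LT-HSC (4.58% of all genes), 32 in ST-HSC (6.52%) and 26 in MPP (3.55%). Within BM, 11 of 40 were lower in LT-HSC than in ST-HSC (0.502% of all genes) and 10 lower than in MPP (2.35%), with none higher. That immediate early genes differ between these sources was known when the list was drawn up, so it is no independent evidence of the direction.

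Since Btg2 is a p53 target, 23 p53 targets were counted: 4 were lower in FL, 3 higher and 16 not called, with a median of -0.03, beside 9.26% of all genes lower and 15.9% higher. Cdkn1a (-1.58 ± 0.13), a cell cycle inhibitor that the immediate early list holds too, Plk2 (-1.53 ± 0.21) and Plk3 (-1.33 ± 0.12) were lower, and Sesn1 (0.65 ± 0.13) was higher. Of 22 proliferation genes, 17 were higher in FL on the average of the populations and none lower. Their median was 0.38, where 15.9% of all genes were called higher. Bub1b (1.06 ± 0.17) and Bub1 (1.01 ± 0.17), of the spindle checkpoint, led them, followed by the mitotic kinase Cdk1 (0.74 ± 0.12) and the cyclin gene Ccne1 (0.67 ± 0.13). By population, 17 were higher in FL in ST-HSC (12.1% of all genes), 2 in LT-HSC (3.08%) and 1 in MPP (1.92%). The Btg2 difference was -2.15 in MPP, -1.74 in LT-HSC and -1.49 in ST-HSC, and its interaction with population was not called (F test, adjusted p = 0.545). In BM, 13 of the 22 were lower in ST-HSC than in MPP (4.79% of all genes). The mean of the 22 was 10.46, 10.03 and 9.76 on BM ST-HSC a, b and c, of which b and c were narrow arrays. A link between proliferation and the Btg genes was not tested.

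Markers of other cells were counted in the same comparison, where 9.26% of all genes were called lower in FL and 15.9% higher. Of 11 neutrophil markers 10 were lower in FL, with a median of -4.40, and their mean signal was 7.06 to 8.11 on the FL arrays against 10.86 to 12.82 on the BM arrays. The most different were Lcn2 (-5.95 ± 0.27), Ngp (-5.77 ± 0.21), S100a8 (-4.95 ± 0.30) and Mmp8 (-4.88 ± 0.22). Of the B cell markers 7 of 9 were lower in FL (means 7.37 to 8.19 in FL, 8.19 to 9.67 in BM), of the macrophage markers 6 of 10 (6.54 to 6.88 in FL, 7.06 to 8.32 in BM), and of the T and NK cell markers 5 of 8, with 1 higher (6.43 to 6.80 in FL, 6.88 to 8.13 in BM). Megakaryocyte and platelet markers gave 3 of 8 lower (7.51 to 8.25 in FL, 7.54 to 9.74 in BM) and erythroid markers 2 lower and 1 higher of 8. Hepatocyte markers gave 4 of 10 higher and 1 lower (7.59 to 9.21 in FL, 7.38 to 7.72 in BM), and stromal and endothelial markers 2 higher and 1 lower of 9. Both stromal and endothelial counts were near the shares over all genes. So were the hepatocyte count of lower genes and the erythroid and T and NK counts of higher genes. Signals are not set against background here, so no marker is said to be absent, and the part of these cells in the Nr4a and Btg differences was not tested. Within BM, the array with the most neutrophil signal, LT-HSC c, had the lowest Nr4a1, Nr4a2 and Nr4a3. In LT-HSC, Nr4a1 fell from a to c (11.10, 9.42 and 8.66) while the neutrophil mean rose (11.48, 11.60 and 12.82). In MPP the neutrophil mean was highest on a (11.25), where Nr4a1 was lowest (11.31). In ST-HSC both were lowest on a and highest on b. Between populations, ST-HSC b and LT-HSC b had like neutrophil means (11.59 and 11.60), with Nr4a1 at 12.17 and 9.42.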

How the data were processed

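RNA of sorted lineage-negative, Sca-1 and Kit positive cells was extracted with the RNeasy Micro kit, and 2 ng of total RNA were labelled with the GeneChip Pico kit after 10 cycles of PCR before in vitro transcription, per the labels' protocols. The deposited values are log2 signals; per the submitters' processing notes, the authors used oligo and R 3.5.01. How background, normalization and summarization were handled is not given in the sources. Of 22203 probe sets, 19572 carried 1 gene symbol and 2631 none or several. For a gene with several, the one with the highest mean was used.

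A linear model of the 6 group means over all 18 arrays was fitted by limma 3.58.1 under R 4.3.3 (moderated by eBayes, no replicate block, no filter), with Benjamini-Hochberg adjustment over all 19505 genes. The script was tested on simulated data. The 3 arrays per group limit the precision: the median standard error was 0.17 for a comparison of 2 groups. Groups came from titles and cell type labels. The genes, lists and tests were chosen with earlier results of these data known. Named genes are the members, for each the 4 genes with the highest r, up to 4 called genes per list with the largest difference, and the check markers. Alternatives left out single arrays, the 4 narrow or the 4 sgEzh2 arrays, and changed scaling, filter, probe set choice, weights, variance model, samples fitted, fold rule and replicate block. Promoters were read from the RefSeq table of GRCm38.p6; the build behind the arrays' annotation was not used. Same-lettered arrays did not deviate together, so the letters were not taken to pair arrays.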

Additional observations from a re-analysis of the deposited data

How the results depend on the processing

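Of 2000 single-gene results under the alternatives, 1952 kept their side of the threshold, 18 lost and 30 gained a call. No result called in either fit reversed in direction. Among the 1952, 41 that were uncalled in both fits differed in sign. Over the single arrays left out, the number of the 5 genes called ranged from 5 to 5 for the average of FL against BM, 2 to 4 in LT-HSC, 4 to 5 in ST-HSC and 4 to 4 in MPP. In BM it ranged from 1 to 3 for LT-HSC against MPP and against ST-HSC and 0 to 1 for ST-HSC against MPP. For the interactions it ranged from 0 to 1 (LT-HSC against MPP), 0 to 2 (LT-HSC against ST-HSC) and 0 to 2 (F test), and within FL it stayed at 0. A fit of only the groups compared called 1 gene for FL against BM in LT-HSC in place of 3, 1 in place of 0 for ST-HSC against MPP in FL, and 0 in place of 1 for LT-HSC against MPP and against ST-HSC in BM; such a fit has fewer samples. With array weights, 5 genes in place of 4 were called for FL against BM in MPP (Btg1 added), 2 genes were called for each of the 3 comparisons within BM, and 1 each for the interaction of LT-HSC against ST-HSC and the F test; the cause was not tested. For LT-HSC against ST-HSC in BM, 2 genes were called in place of 1 with median centring, repeated quantile normalization, without the dimmest 30% of genes, and with trend and robust estimation, in each case with Nr4a3 added, and 0 without the narrow arrays. Under the rule of at least 2-fold, Btg1 was not called in any comparison.

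Same-lettered arrays of different groups deviated from their group means with r between -0.46 and 0.42 (median -0.03), and others with -0.54 to 0.55 (median 0.01). A fixed replicate block changed no count by over 1.5 times; a random replicate block within source (correlation 0.04) called 2 genes for LT-HSC against ST-HSC in BM, Nr4a3 (adjusted p = 0.0457) being added. Over all genes, the average called 4904 and from 2538 (without the sgEzh2 arrays) to 7260 (array weights), and LT-HSC against ST-HSC in BM called 334 and from 11 (only the groups compared) to 4940 (array weights). Other scalings moved the median difference of all genes to at most 0.03 from 0.01. With 3 arrays a group, a value that missed the threshold does not show that groups were alike.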

Other observations

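Of 16 other nuclear receptors measured, 4 were higher in FL, 3 lower and 9 not called on the average, with a median of -0.01. Over all genes 15.9% were called higher and 9.26% lower, and a difference of this list from the Nr4a genes was not tested. Rara, the retinoic acid receptor alpha gene (0.44 ± 0.13, adjusted p = 0.0144), and Nr2f6 (0.46 ± 0.16, adjusted p = 0.0408) were higher in FL, while Nr1d2, of the circadian clock (-0.50 ± 0.14, adjusted p = 0.0104), and Nr3c1, the glucocorticoid receptor gene (-0.46 ± 0.14, adjusted p = 0.0183), were lower. None of the 16 was called between FL and BM within LT-HSC or MPP.

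Btg1b and Btg1c, relatives of Btg1 with probe sets of their own, showed no called difference. Btg1b averaged 6.78 ± 0.26 (SD, n = 9) on the FL arrays and 6.94 ± 0.29 on the BM arrays, a difference of -0.16 (adjusted p = 0.398). Btg1c averaged 4.44 ± 0.12 and 4.41 ± 0.15, a difference of 0.04 (adjusted p = 0.756). How far the Btg1 probes read these relatives was not tested.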
